A study of Bos taurus with 11 samples.

Results

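Proteasome subunits, their regulators and assembly chaperones, and ubiquitin-conjugating (E2) enzymes were followed by their mRNA levels in single bovine blastocysts. The members were all transcripts whose RefSeq accession belongs to a bovine gene symbol beginning with PSMA, PSMB, PSMC, PSMD, PSME, PSMF, PSMG or UBE2. Of the 12056 transcripts listed in either table, 78 were members, with 73 in the table of GATA3 KO and 78 in that of CDX2 KO. PSMA8, PSME3, PSMG4, UBE2O, UBE2QL1 and UBE2U were not analysed here. PSMC3IP and PSME3IP1 carry the prefix because their proteins bind a proteasome protein, and were kept as the rule takes them.

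The proteasome is the main protease of the cytosol and nucleus. Its barrel, the 20S core, is built of alpha rings, which gate the entrance, and beta rings, of which some subunits cut peptide bonds. The 19S particle caps the barrel, binds ubiquitin chains, removes them and unfolds the substrate with a ring of ATPases, and core and cap together form the 26S proteasome. E2 enzymes take activated ubiquitin from an E1 enzyme and pass it, usually with an E3 ligase, to the protein to be marked. In preimplantation embryos this pathway is known for clearing maternal proteins and for driving the cell cycle.

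The study asked what the loss of GATA3 or CDX2, transcription factors of the trophectoderm (the outer layer that founds the placenta), does to bovine embryos. RNA was sequenced from 11 early blastocysts of day 7, each a library of its own, of which 3 were WT control, 4 GATA3 KO and 4 CDX2 KO. As zygotes, WT control embryos received only the mRNA of BE3, a cytosine base editor that can write a stop codon into a gene, whereas KO embryos received BE3 mRNA with a mix of guide RNAs against GATA3 or CDX2. Controls therefore carried the editor too, and a KO blastocyst injected as a zygote may be a mosaic of edited and unedited cells. The 2 tables share the 3 WT control embryos, were normalized separately, and give each transcript a normalized count per embryo, which is not corrected for transcript length, so levels are compared between embryos of a table and not between genes.

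An embryo had between 150057 and 540775 recovered counts in the table of GATA3 KO, and between 100731 and 662962 in the other. KO embryos keep the numbers of their columns, 3 to 6 for GATA3 KO and 2 to 5 for CDX2 KO. The GATA3 transcript stood at 71.3 to 87.6 in WT control and at 9.85 to 13.1 in GATA3 KO embryos, and the CDX2 transcript at 6.88 to 11.1 in WT control and 1.66 to 4.66 in CDX2 KO embryos. The CDX2 transcript was also low in the table of GATA3 KO, at 4.66 to 9.73 in WT control and 0 to 3.45 in GATA3 KO embryos, and CDX2 KO embryos 2, 3 and 4 had only 2 or 3 counts of it. KRT8, a trophectoderm keratin, was high in every library. With GATA3 KO embryos and their controls it spanned 1746 to 4318, with CDX2 KO embryos and theirs 718 to 6698. SOX2, a pluripotency factor, spanned 6.57 to 29.5 and 12.05 to 40.1 in that order. Among 7 trophectoderm markers listed for GATA3 KO, the KO mean was lower for 6, GATA3 included, and higher for 1, with overlap between the groups for 3. GATA2 was lower (log2 fold change -1.16, limma adjusted p = 0.034) and TFAP2C higher (1.03, limma adjusted p = 0.044). The part of these markers in the member levels was not tested. CDX2 KO embryos 2 and 3 had the lowest totals of their table, 218797 and 100731, and the 100 highest transcripts took 19.3% and 16.3% of their counts against 24.5% to 27.5% in the other embryos of that table. All 3 WT control embryos had Y-linked counts (29 to 98 in the table of GATA3 KO), but among KO embryos only GATA3 KO embryo 6 (68) and CDX2 KO embryo 5 (155) had more than 2, so that the sex of the embryo and the knockout are partly confounded. In bulk RNA of a whole blastocyst, fewer cells of a type and less RNA per cell cannot be told apart.

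In GATA3 KO embryos the mRNAs of the 26S proteasome took a larger share of the counts than in any WT control embryo. The 31 subunits of the core and cap summed to 0.834%, 0.740% and 0.798% of all counts in WT control embryos 1, 2 and 3, and to 1.01%, 0.997%, 0.902% and 1.10% in GATA3 KO embryos 3, 4, 5 and 6. The gap between the groups lay between WT control embryo 1 (95% Wilson interval 0.803% to 0.866%) and GATA3 KO embryo 5 (0.862% to 0.943%), whose intervals overlap. These intervals cover counting error only, since amplified reads without molecular identifiers are not independent molecules. The 19S particle summed to 0.261% to 0.336% in WT control and 0.363% to 0.433% in GATA3 KO embryos, and the 20S core to 0.479% to 0.517% and 0.538% to 0.675%. Per embryo, the log2 difference from the control mean had a median over the 62 tested members of 0.22, -0.17 and 0.06 in WT control embryos 1, 2 and 3 and of 0.45, 0.27, 0.29 and 0.49 in the KO embryos, where all tested transcripts had -0.08 to 0.08 and 0.12 to 0.13. The UBE2 genes overlapped between the groups, at 0.292% to 0.343% against 0.339% to 0.382%.

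**Figure D1:**
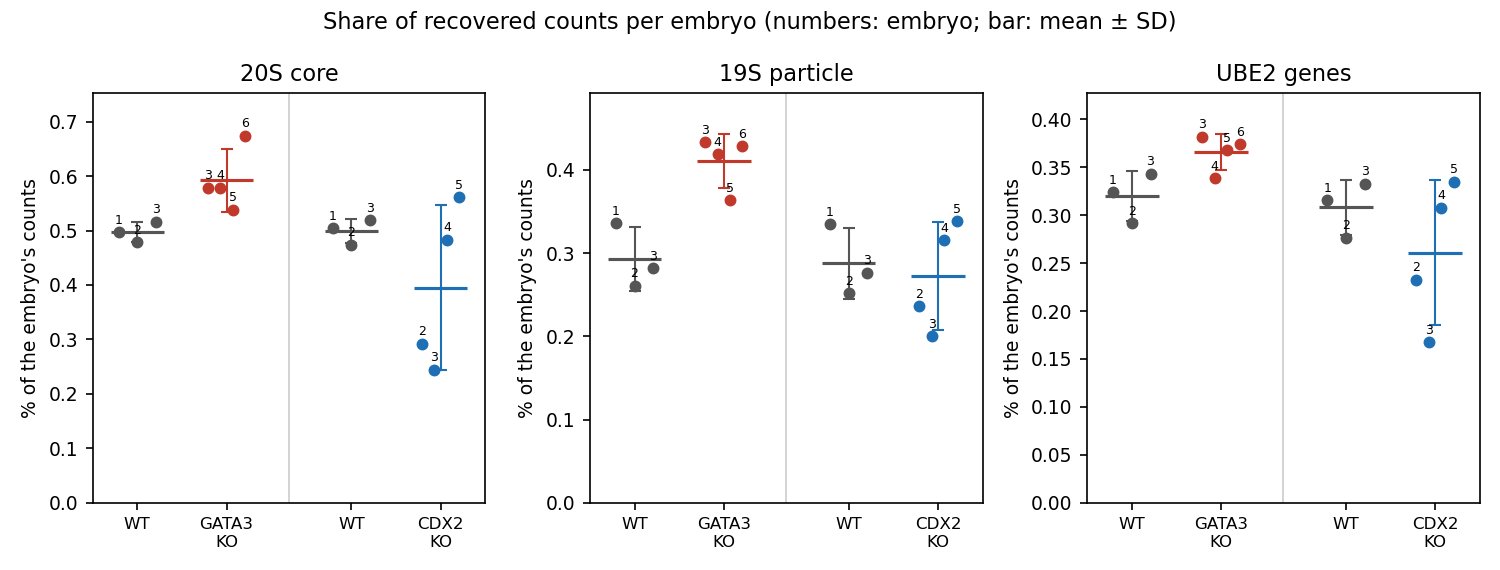
Share of each embryo's recovered counts (%, y axis from 0) taken by the 20S core, the 19S particle and all UBE2 genes, in WT control (grey), GATA3 KO (red) and CDX2 KO (blue) embryos; each point is 1 embryo with its number, and the bar and whiskers are the mean ± SD of 3 or 4 embryos. GATA3 KO embryos lie above every WT control embryo for the 20S core (0.538% to 0.675% against 0.479% to 0.517%) and the 19S particle, and CDX2 KO embryos 2 and 3 lie lowest of all.

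Single transcripts were compared by limma on log2(normalized count + 1), leaving out transcripts whose mean was under 10. A transcript passed when its Benjamini-Hochberg adjusted p over the whole table was no more than 0.05 and its fold change was 1.5 or higher, or 0.6 or lower. Of the 73 members in the table of GATA3 KO, 62 were tested. The mean is taken over all embryos of a table, so a gene low in WT control can be tested through high KO values. UBE2B and PSME3IP1, with WT control means of 9.38 and 8.64, were tested in this way. UBE2R2 and UBE2Z, below every control in all GATA3 KO embryos, were left out by the filter. PSMA2, PSMD14, UBE2B and PSME3IP1 rose and none fell, against 1.55% of all 4271 tested transcripts called higher and 0.468% called lower (2.01% either way). An unadjusted p under 0.05 was found for 21 of the 62, those that passed included, and for 22.6% of all tested transcripts. The log2 fold change was above 0 for 53 of the 62 (85.5%), where 57.2% of all tested transcripts were above 0, and its median was 0.35 over the members and 0.11 over all. With quantile normalization the median was 0.20 and with edgeR 0.22, and 74.2% and 75.8% of members were above 0, against 50.2% and 50.4% of all tested transcripts. With no filter on low values it was above 0 for 56 of all 73 members (76.7%), against 43.3% of all listed transcripts. Every GATA3 KO embryo was above every WT control embryo for 19 tested members, or below for 2 (PSMB3 and UBE2M), where 11.9% and 7.05% of all tested transcripts did so.

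PSMA2 (NM_001034662), an alpha ring subunit, had normalized counts of 63.1, 34.6 and 35.7 in WT control and 110, 106, 91.7 and 108 in GATA3 KO embryos. All 4 KO embryos were above the highest control and close to one another. Means were 44.5 ± 16.2 (SD, n = 3) for the controls and 104 ± 8.34 (SD, n = 4) for the KO embryos, a log2 fold change of 1.26 ± 0.26 (SE) with an adjusted p of 0.025 by limma. The other alpha subunits were less far apart, and all 7 had a log2 fold change above 0 with a median of 0.31. PSMA1 stood at 42.1 to 74.2 in WT control and 81.0 to 103 in GATA3 KO embryos (log2 fold change 0.81 ± 0.26, limma adjusted p = 0.086), and PSMA5 at 32.6 to 61.5 and 65.7 to 89.3 (0.88 ± 0.27, limma adjusted p = 0.076). Neither passed, although the groups did not overlap. PSMA7, with 191, 175 and 214 in WT control and 187, 194, 210 and 257 in GATA3 KO embryos, had the smallest difference of the ring (0.12 ± 0.22).

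The beta ring was the group of core subunits with the smallest differences in GATA3 KO embryos, with a median log2 fold change of 0.23, and it held the one subunit of the core that was lower. PSMB3 (NM_001034596), a beta subunit without a catalytic site, was at 68.7, 104 and 112 in WT control and at 43.4, 48.3, 57.2 and 62.4 in GATA3 KO embryos. Every GATA3 KO embryo was below every control, and the log2 fold change of -0.81 ± 0.26 did not pass with limma (adjusted p = 0.086) but passed with DESeq2 on the recovered counts (-0.95, adjusted p = 0.033). The ratio of PSMB3 to the sum of the other 6 beta ring subunits of the same embryo was chosen after the values were seen. It is a description and adds no support. PSMB3 came to 11.7%, 21.7% and 21.1% of that sum in WT control and to 6.93%, 8.21%, 10.6% and 7.78% in GATA3 KO embryos. WT control embryo 1 was the nearest to the KO range. In the table of CDX2 KO the same ratio was 11.5%, 22.1% and 21.2% in WT control and 21.7%, 33.7%, 15.5% and 17.8% in KO embryos, all inside or above the control range. The gene model of PSMB3 overlaps that of PCGF2 in the annotation of ARS-UCD2.0, and how reads shared by overlapping models were counted is not given in the sources used here.

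The catalytic beta subunits did not pass in GATA3 KO embryos. PSMB5, which cuts after hydrophobic residues, was at 127, 81.1 and 113 in WT control and 86.8, 104, 101 and 166 in GATA3 KO embryos (log2 fold change 0.07 ± 0.27). PSMB6, which cuts after acidic residues, was at 66.3 to 69.9 in WT control and 51.2 to 109 in KO embryos (0.12 ± 0.27). PSMB7, with trypsin-like activity, was at 69.9 to 100 and 90.9 to 125 (0.29 ± 0.24). In all of them the groups overlapped, and GATA3 KO embryo 6 held the highest value. PSMB2 was at 75.6 to 90.2 in WT control and 102 to 133 in GATA3 KO embryos without overlap (0.50 ± 0.23, limma adjusted p = 0.21), and PSMB4 at 94.0 to 118 and 102 to 137 with overlap.

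The interferon-inducible beta subunits, which replace the catalytic ones in the immunoproteasome of immune cells, were low in both tables. PSMB9 was at 1.55 to 6.48 in WT control and 0.821 to 3.57 in GATA3 KO embryos, where 3 counts correspond to a normalized count of 1.29 to 4.66. In the table of CDX2 KO, PSMB9 was at 1.15 to 7.11 in WT control and 4.98 to 9.13 in KO embryos, with 17 counts in embryo 5. PSMB8 and PSMB10, listed in the table of CDX2 KO alone, were at 0 to 4.59 and at 1.90 to 4.74 in WT control embryos. PSMB10 reached 20.97 in CDX2 KO embryo 3, where 3 counts are worth 6.99, and was at 1.66 to 6.44 in the other CDX2 KO embryos. The thymus-specific PSMB11 was at 0 to 8.69 in that table, and its gene model overlaps that of PSMB5. No member of this set was tested, because their means were under 10.

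**Figure D2:**
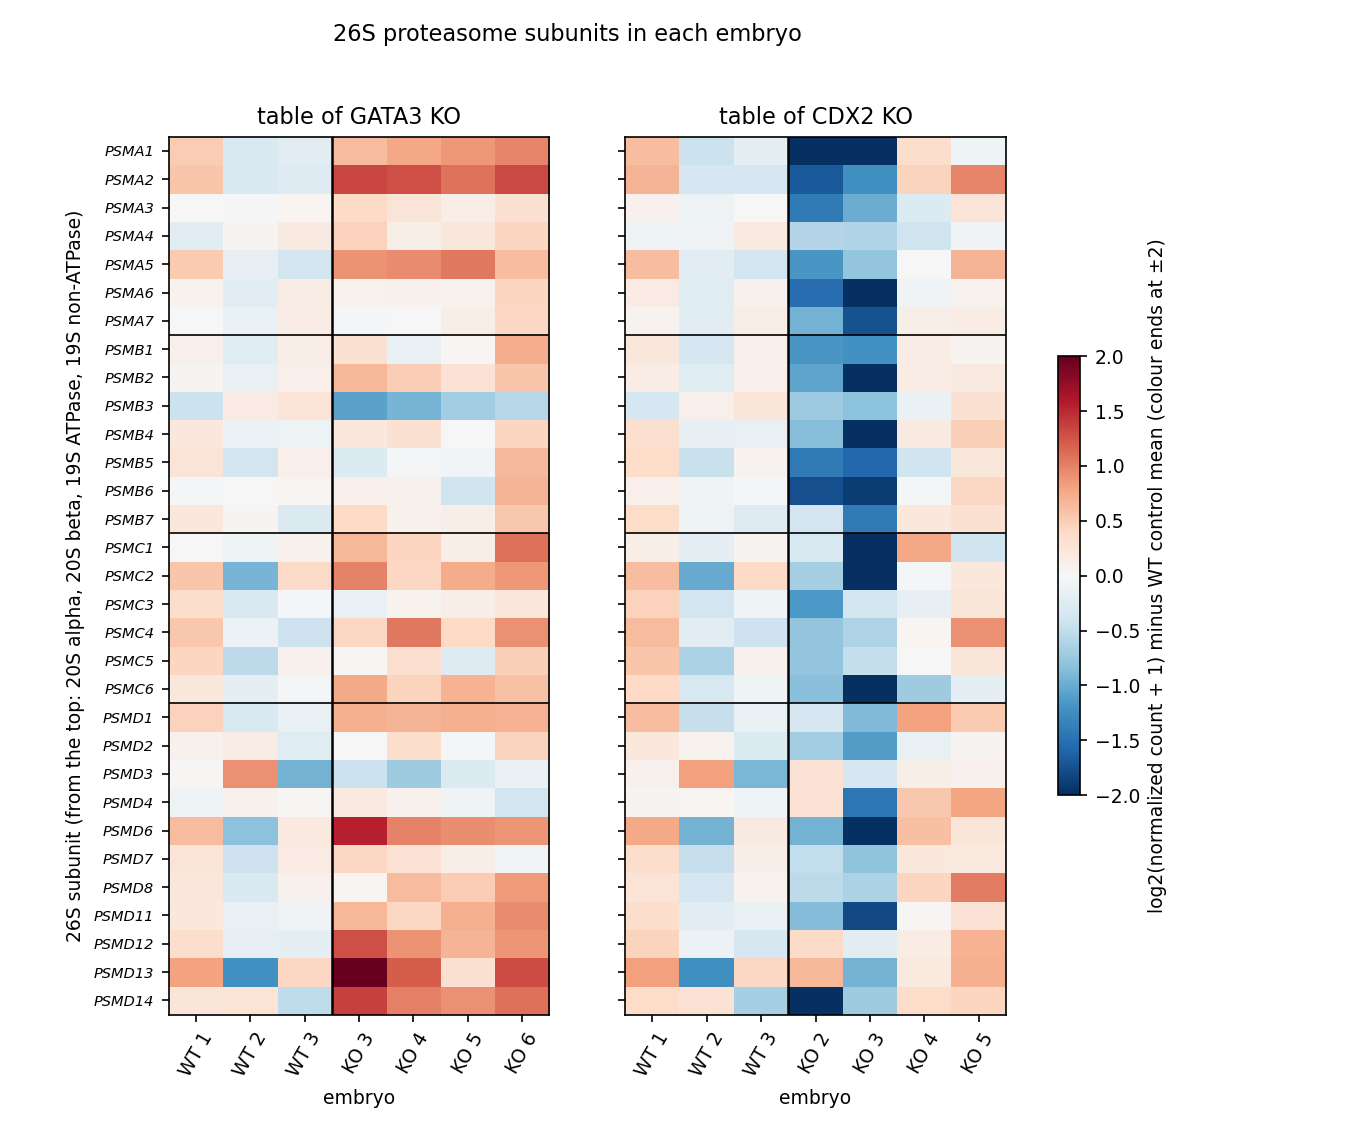
Each row is 1 of the 31 subunits of the 26S proteasome and each column 1 embryo; colour is log2(normalized count + 1) minus the mean of the 3 WT control embryos of that table, red above and blue below, with the scale ending at 2 either way. GATA3 KO columns are mostly red apart from PSMB3 and PSMD3, which are blue in all 4 KO embryos. Several rows are mixed, such as PSMB1, PSMB5, PSMB6, PSMC3, PSMC5 and PSMD4. The deepest red is in PSMA2, PSMD6, PSMD13 and PSMD14. In the other table CDX2 KO embryos 2 and 3 are mostly blue where embryos 4 and 5 are near the controls.

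Subunits of the 19S particle had larger differences in GATA3 KO embryos than those of the core, with a median log2 fold change of 0.62 over 17 subunits against 0.26 over the 14 of the core. The difference between these medians was not tested. PSMD14 (NM_001076067), the deubiquitinase of the cap that cuts ubiquitin chains off the substrate, was at 34.7, 35.7 and 20.2 in WT control and 76.7, 59.9, 56.0 and 64.0 in GATA3 KO embryos. The lowest KO embryo was well above the highest control. The means were 30.2 ± 8.66 (SD, n = 3) and 64.2 ± 8.99 (SD, n = 4), the log2 fold change 1.10 ± 0.28 and the limma adjusted p 0.047, close to the threshold. PSMD14 passed in 5 of 11 alternative analyses of all embryos, and did not with edgeR (adjusted p = 0.069) or DESeq2 (adjusted p = 0.065) on the recovered counts, with a pseudocount of 0.1 (limma adjusted p = 0.053), with quantile normalization (0.070), without the trended prior (0.097) or with the covariate for Y-linked counts (0.35).

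Other non-ATPase subunits of the cap had differences of like size without passing. PSMD6 was at 48.9, 17.3 and 35.7 in WT control and 94.1, 62.9, 60.7 and 58.3 in GATA3 KO embryos (log2 fold change 1.09 ± 0.32, limma adjusted p = 0.068). PSMD12 was at 38.7, 27.0 and 26.4 against 75.3, 57.3, 48.8 and 56.7 (0.94 ± 0.27, limma adjusted p = 0.063). Both were free of overlap between the groups. PSMD13 was at 20.5, 4.32 and 15.5 against 53.5, 27.6, 14.3 and 29.6, and there WT control embryo 2 was far below the other controls (1.24 ± 0.46, limma adjusted p = 0.13). The annotation places the models of PSMD6 and PSMD13 over those of ATXN7 and NBAS. Whether the chromosome 11 placement of PSMD13 is the locus that was counted was not checked, so its values are uncertain. The scaffold PSMD1 was at 88.4, 51.9 and 57.5 against 106, 104, 106 and 104, a mean of 105 ± 1.05 (SD, n = 4) in KO embryos (0.70 ± 0.25, limma adjusted p = 0.12).

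The ubiquitin receptor PSMD4 was at 14.2 to 16.2 in WT control and 11.5 to 17.4 in GATA3 KO embryos (log2 fold change -0.05 ± 0.33). PSMD3 was at 10.9 to 42.1 and 12.9 to 19.7, with all KO embryos inside the control range (-0.39 ± 0.38). The 6 ATPases of the cap all had a log2 fold change above 0, with a median of 0.60, and none passed. PSMC2 was at 56.0, 19.5 and 49.7 in WT control and 76.7, 50.8, 64.3 and 69.8 in GATA3 KO embryos (0.75 ± 0.33, limma adjusted p = 0.19), with overlap from WT control embryo 1. PSMC1 was at 41.1 to 46.6 against 47.6 to 94.4 without overlap (0.58 ± 0.27, limma adjusted p = 0.22), and PSMC3 at 57.3 to 89.95 against 63.7 to 82.1 (0.07 ± 0.25).

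Activators and the inhibitor of the core showed no common direction in GATA3 KO embryos, with a median log2 fold change of -0.04 over 4 genes and none past the threshold. PSME1 and PSME2, which form the interferon-inducible PA28 cap, were at 33.9 to 51.3 against 25.5 to 34.03 and at 13.0 to 15.5 against 7.15 to 14.0, with log2 fold changes of -0.45 ± 0.27 and -0.30 ± 0.38. PSME4, the PA200 activator, was at 41.0, 30.3 and 37.3 in WT control and 91.2, 42.2, 57.2 and 41.1 in GATA3 KO embryos, with KO embryo 6 just above the highest control (0.60 ± 0.30). PSMF1, an inhibitor, was at 4.32 to 14.2 and 8.62 to 13.0. All 5 tested assembly chaperones, which bring the subunits together and are not part of the finished particle, had a log2 fold change above 0 (median 0.50). PSMG1 was at 19.5 to 29.2 in WT control and 26.1 to 56.0 in KO embryos (0.64 ± 0.31), PSMG2 at 24.9 to 45.1 and 39.3 to 64.0 (0.50 ± 0.28) and PSMG3 at 15.1 to 29.2 and 24.6 to 33.3 (0.46 ± 0.30), all with overlap and none past the threshold.

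Among the E2 enzymes, UBE2B (NM_001037459) rose in GATA3 KO embryos. UBE2B works with RAD18 in the tolerance of DNA damage and with E3 ligases that mark histones. It was at 13.4, 5.40 and 9.33 in WT control and 34.7, 24.6, 22.6 and 43.5 in GATA3 KO embryos. UBE2B had only 17, 5 and 6 recovered counts in those controls. The KO embryos lay above every control, at a mean of 31.4 ± 9.69 (SD, n = 4) against 9.38 ± 4.01 (SD, n = 3), with a log2 fold change of 1.67 ± 0.36 and a limma adjusted p of 0.025. The ligase partner RAD18 was at 9.73 to 12.4 in WT control and 14.6 to 18.8 in GATA3 KO embryos and did not pass (0.54 ± 0.34, limma adjusted p = 0.37).

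Of the 21 E2 genes tested in the table of GATA3 KO, 17 had a log2 fold change above 0, with a median of 0.30. UBE2D3, a broad partner of many E3 ligases, was at 51.9 to 68.4 in WT control and 71.9 to 116 in GATA3 KO embryos (0.56 ± 0.25, limma adjusted p = 0.20). UBE2N, which with UBE2V1 or UBE2V2 builds chains linked through lysine 63, was at 41.1 to 54.4 and 59.6 to 94.1 (0.58 ± 0.26, limma adjusted p = 0.20). Both were free of overlap without passing. Reads that fit more than 1 of the closely related UBE2D and UBE2E genes could have been split or dropped in counting, so their values are uncertain. UBE2L3, the E2 of parkin and other RING-between-RING ligases, was at 75.0 to 112 and 84.0 to 107 (0.08 ± 0.24), UBE2K, which extends chains linked through lysine 48, at 18.4 to 41.97 and 27.5 to 35.7 (0.22 ± 0.30), and UBE2T, the E2 of the Fanconi anaemia pathway, at 5.40 to 12.4 and 9.05 to 14.3 (0.51 ± 0.43).

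The pair that serves the anaphase-promoting complex, the E3 ligase of mitosis, gave unlike values in GATA3 KO embryos, and neither gene passed. UBE2C, which starts the chain, was at 138, 70.2 and 110 in WT control and 97.0, 89.2, 136 and 121 in GATA3 KO embryos, all inside the control range (0.09 ± 0.27). UBE2S, which extends it, was at 17.4, 38.9 and 32.6 against 5.79, 16.8, 16.7 and 20.5, with KO embryo 6 above WT control embryo 1 (-0.99 ± 0.40, limma adjusted p = 0.16). UBE2M, the E2 for NEDD8, was at 16.6, 16.2 and 14.0 against 8.68, 12.1, 5.96 and 8.21, all KO embryos below all controls (-0.80 ± 0.40, limma adjusted p = 0.24).

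PSME3IP1 (NM_001014944), a nuclear protein that binds the PA28 gamma activator and is no subunit, had the largest difference of all tested members in GATA3 KO embryos. It was at 12.6, 8.65 and 4.66 in WT control and 33.3, 29.7, 48.8 and 27.1 in GATA3 KO embryos, above every control in all 4. PSME3IP1 had only 16, 8 and 3 recovered counts in those controls. Its mean was 8.64 ± 3.98 (SD, n = 3) against 34.7 ± 9.73 (SD, n = 4), with a log2 fold change of 1.94 ± 0.35 and a limma adjusted p of 0.014. In CDX2 KO embryos PSME3IP1 was at 30.6, 16.3, 27.4 and 26.3 against 17.1, 9.48 and 6.88 in the same 3 controls, with embryo 3 inside the control range. Its log2 fold change there was 1.16 ± 0.44 with an unadjusted p of 0.022 and a limma adjusted p of 0.90, and did not pass. As the controls are shared, the values of PSME3IP1 in the 2 tables are not independent.

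**Figure D3:**
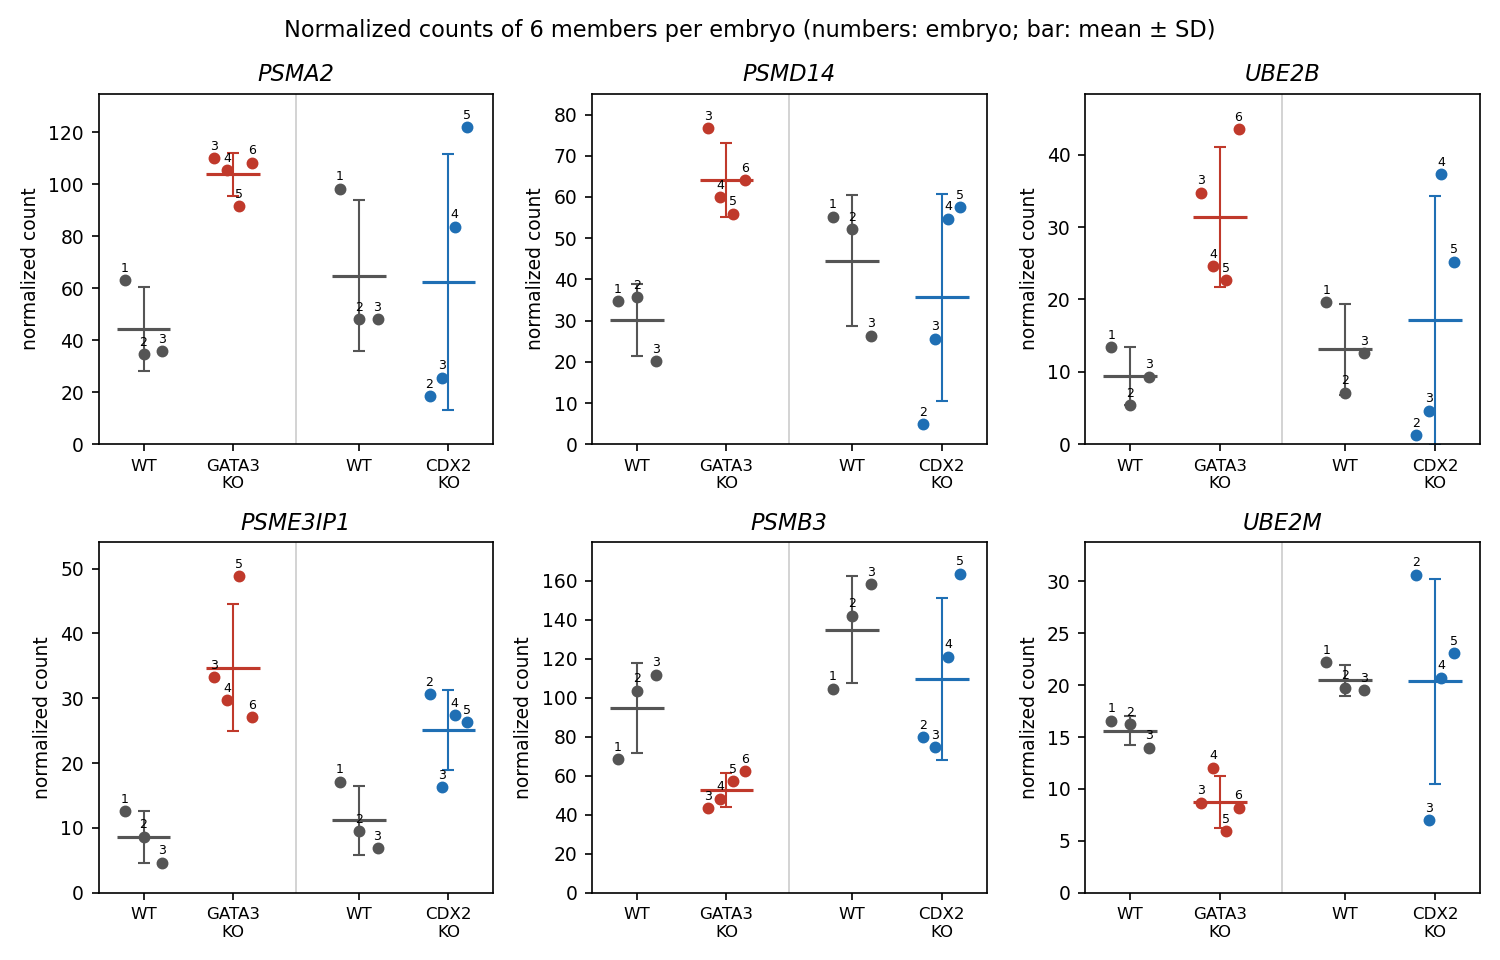
Normalized counts (y axes from 0) of the 4 members that rose in GATA3 KO embryos and of the 2 tested members that were lower without overlap, by embryo, with GATA3 KO in red, CDX2 KO in blue and the WT control embryos of each table in grey; numbers are embryos, and bars and whiskers the mean ± SD, cut off at 0. In the 4 genes that rose, GATA3 KO embryos stand above every control, whereas CDX2 KO embryos spread widely for PSMA2, PSMD14 and UBE2B (UBE2B from 1.23 to 37.3) and 3 of 4 stand above every control for PSME3IP1 (16.3 to 30.6 over the 4).

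The 4 calls in GATA3 KO embryos rested on few embryos, and WT control embryo 2 was the lowest of the 7 for 35 of the 62 tested members (56.5%) and for 25% of all tested transcripts. Leaving out each of the 7 embryos in turn, PSME3IP1 passed in 5 fits, PSMA2 and UBE2B in 3 and PSMD14 in 2. No member passed once WT control embryo 2 was left out, nor once GATA3 KO embryo 3 was, where over all tested transcripts 0 were called higher and 1 lower in either fit, in place of 66 and 20. Without WT control embryo 1 there were 10 (9 higher and, with PSMB3, 1 lower), and 259 higher and 45 lower over all. The log2 fold changes stayed at 1.604 to 2.24 for PSME3IP1, 1.11 to 1.53 for PSMA2, 1.36 to 1.94 for UBE2B and 0.84 to 1.23 for PSMD14 in these fits. With a covariate for Y-linked counts no member passed, as 0 higher and 1 lower did over all tested transcripts, the KO coefficient then resting on GATA3 KO embryo 6 alone, and the log2 fold changes of the 4 genes were 1.63, 1.32, 2.18 and 1.10 in the order above.

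In CDX2 KO embryos the members separated embryos 2 and 3 from embryos 4 and 5. All members summed to 1.26%, 1.09% and 1.25% of the counts in WT control embryos and to 0.864%, 0.723%, 1.23% and 1.36% in CDX2 KO embryos 2, 3, 4 and 5. Embryos 2 and 3 were below every control and embryos 4 and 5 inside or above the control range. The log2 difference from the control mean had a median over the tested members of -0.75 and -1.21 in embryos 2 and 3 and of 0.15 and 0.28 in embryos 4 and 5, beside -0.15, -0.39, 0.05 and 0.10 over all tested transcripts. Embryo 3 was the lowest of the 7 for 41 of 67 tested members (61.2%) and for 37.6% of all tested transcripts. It also had the fewest counts, with 25 of the 78 members at or under 3 counts and 6 of these at 0, where 3 counts are worth a normalized count of 6.99. The part of depth in these values was not tested.

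By limma, 0 of the 67 members tested in CDX2 KO embryos passed, as did 0% of all 5719 tested transcripts. PSME3IP1 was the only member with an unadjusted p under 0.05 (3.27% of all tested transcripts had one), and edgeR and DESeq2 on the recovered counts also called 0 members. No member was free of overlap between the groups, where 5.88% of all tested transcripts were (2.52% with every KO embryo above and 3.36% with every KO embryo below the controls). The log2 fold change was below 0 for 52 members and above 0 for 15 (22.4%, against 39.5% of all tested transcripts), with a median of -0.42 beside -0.15 over all. That median was -0.16 without embryo 3, -0.64 without embryo 5, -0.24 with edgeR and -0.22 with DESeq2, beside -0.05, -0.19, 0.01 and 0.03 over all tested transcripts in the same fits. Without embryos 2 and 3, a choice made after seeing the data, the log2 fold change was above 0 for 50 of 67 (74.6%, against 55% of all tested transcripts). The median was then 0.16 beside 0.06 over all. These 2 embryos had the lowest member values, so that turn follows from the choice and is no separate result. Of 10 markers of cumulus cells 9 were listed in this table, and their sum was 34.8 to 48.1 in WT control and 65.0 to 86.2 in CDX2 KO embryos, with 0 to 3 of the 9 at 0 in an embryo. CYP11A1, the only one of them high enough to be tested, was at 5.73 to 17.8 in WT control and 11.0, 25.6, 40.6 and 32.2 in CDX2 KO embryos and did not pass (limma adjusted p = 0.90), and all 9 overlapped between the groups, with the KO mean higher for 7 and lower for 2. The part of these cells in the result was not tested. The 9 trophectoderm markers summed to 3683 and 2158 in embryos 2 and 3, below the 4501 to 11340 of the controls, and to 7354 and 6212 in embryos 4 and 5, and their part was not tested either. Most of that sum was KRT8 and KRT18 (1895 and 1455 in embryo 2), while GATA3 was at 123 in embryo 2 and 30.3 in embryo 3, beside 96.4 to 129 in WT control. Of these 9 markers the KO mean was higher for 3 and lower for 6, and 6 overlapped between the groups.

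Core subunits were low in CDX2 KO embryos 2 and 3. All 14 core subunits had a log2 fold change below 0 in CDX2 KO embryos (median -0.60), and the core summed to 0.292% and 0.244% of the counts in embryos 2 and 3 against 0.474% to 0.519% in WT control and 0.483% and 0.561% in embryos 4 and 5. PSMA1 was at 112, 53.7 and 64.2 in WT control and 15.9, 4.66, 92.9 and 68.7 in CDX2 KO embryos (-1.39 ± 0.79). PSMA7 was at 230 to 292 in WT control and 137, 79.2, 288 and 294 in KO embryos (-0.61 ± 0.49). In both, embryos 2 and 3 were under every control and embryos 4 and 5 near them. The catalytic PSMB5, PSMB6 and PSMB7 were likewise below every control in embryos 2 and 3, at 57.6, 51.3, 118 and 180 against 114 to 201, at 28.2, 25.6, 96.2 and 131 against 93.2 to 105, and at 91.9, 44.3, 138 and 148 against 99.7 to 154.

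The cap was less uniform in CDX2 KO embryos. Its 6 ATPases had log2 fold changes below 0 (median -0.47), and PSMC2, at 84.4, 26.9 and 72.2 in WT control and 34.3, 0, 53.9 and 63.4 in KO embryos, was the lowest (-1.57 ± 1.13). The 0 is that of embryo 3. The 11 non-ATPases had a median of 0.03, and 6 were above 0. PSMD14 was at 55.2, 52.1 and 26.4 in WT control and 4.90, 25.6, 54.7 and 57.4 in CDX2 KO embryos (-0.70 ± 0.69), with embryo 2 far under the rest. PSMD12 was at 56.5, 37.9 and 32.1 against 53.9, 34.95, 45.6 and 67.1 (0.25 ± 0.40), and PSMD4 at 19.5 to 21.6 against 25.7, 6.99, 30.7 and 36.5 (0.04 ± 0.52).

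The 24 tested UBE2 genes had a median log2 fold change of -0.50 in CDX2 KO embryos, 19 of them below 0. UBE2B was at 19.7, 7.11 and 12.6 in WT control and 1.23, 4.66, 37.3 and 25.2 in CDX2 KO embryos, where embryos 2 and 3 were below and embryos 4 and 5 above every control (-0.31 ± 0.89). UBE2C was at 91.6 to 207 against 44.1, 41.9, 120 and 148 (-0.88 ± 0.52) and UBE2N at 56.1 to 81.8 against 33.1, 9.32, 52.2 and 85.4 (-0.98 ± 0.60). UBE2J2, an E2 of the endoplasmic reticulum membrane, had the lowest log2 fold change of the E2 genes, at 22.2, 27.6 and 19.5 against 19.6, 0, 23.2 and 11.8 (-1.42 ± 0.90). UBE2M overlapped between the groups in this table, at 19.5 to 22.2 against 30.6, 6.99, 20.7 and 23.1 (-0.17 ± 0.49), and UBE2S was at 24.7 to 46.6 against 29.4, 16.3, 38.1 and 27.4 (-0.42 ± 0.42). The meiotic recombination factor PSMC3IP was at 4.74 to 12.6 against 4.90, 37.3, 5.81 and 11.8, the high value being that of embryo 3 (0.60 ± 0.78).

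**Figure D4:**
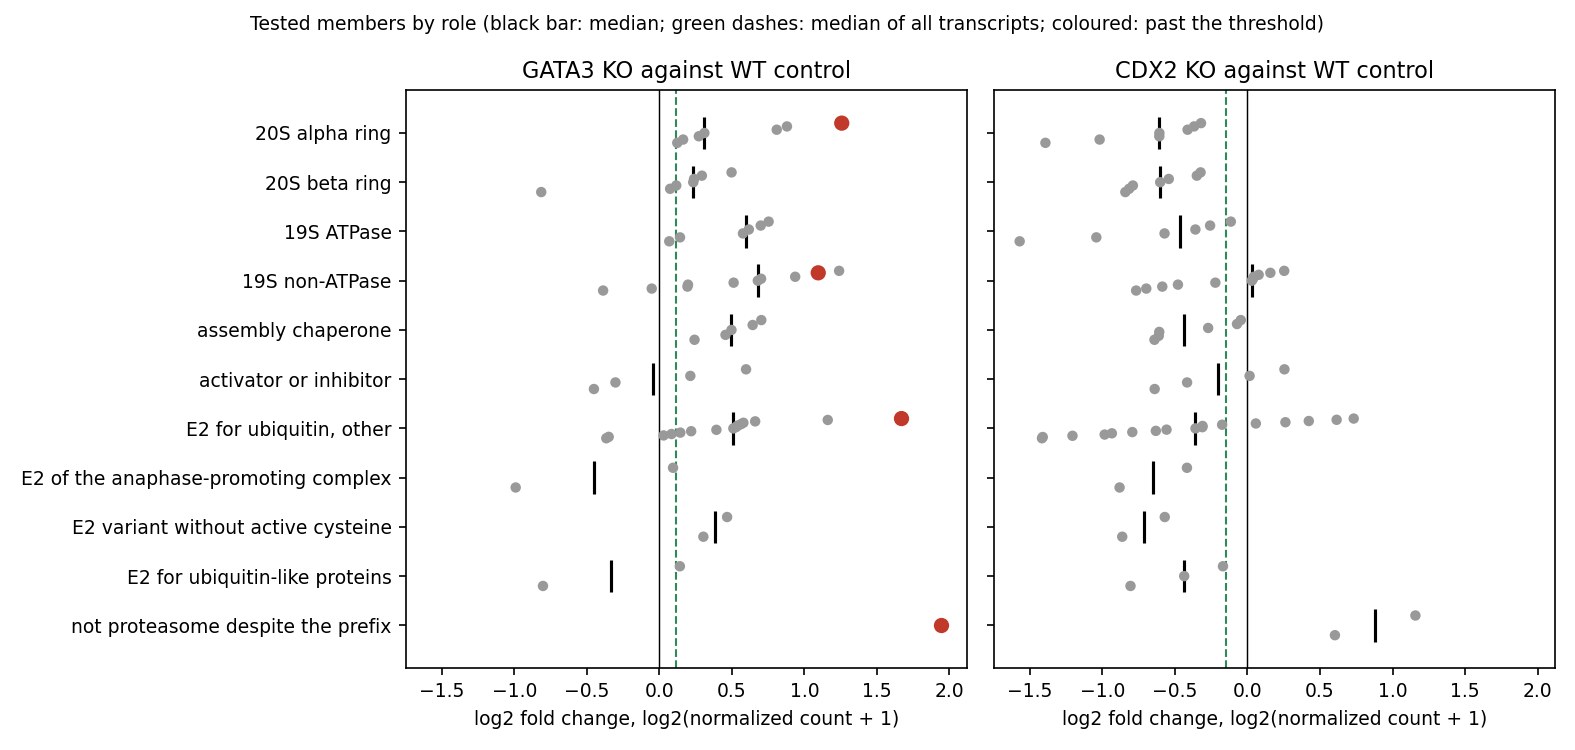
Log2 fold change of KO against WT control (x axis, on log2(normalized count + 1)) of each tested member, grouped by role, with the median of a role as a black bar, the median of all tested transcripts as green dashes (0.11 in GATA3 KO and -0.15 in CDX2 KO) and members past the threshold as large coloured points. In GATA3 KO most points lie right of the dashes, with PSMB3, UBE2S and UBE2M to the left, whereas in CDX2 KO the rings of the core and the ATPases lie left of 0 and no point passed.

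PSMD10, an assembly chaperone of the cap known as gankyrin, and UBE2A, the close relative of UBE2B, are the X-linked members. UBE2A was at 7.89, 5.40 and 4.66 in WT control and 26.1, 18.95, 19.1 and 4.11 in GATA3 KO embryos, so embryos 3, 4 and 5 were above every control and embryo 6, the one with Y-linked counts, below. Its log2 fold change was 1.16 ± 0.54 (limma adjusted p = 0.22), and 1.69 without embryo 6 (limma adjusted p = 0.039). That fit left out the KO embryo lowest for this gene, and over all tested transcripts it called 139 higher and 48 lower in place of 66 and 20, so its p is given as a description. PSMD10 was at 27.6, 15.1 and 15.5 in WT control and 39.1, 25.4, 32.2 and 7.39 in GATA3 KO embryos (0.24 ± 0.44), where embryo 6 was again the lowest, embryos 3 and 5 were above every control and embryo 4 lay below WT control embryo 1. In the table of CDX2 KO the levels of these members did not sort by Y-linked counts in this way. There UBE2A was at 10.8, 7.11 and 6.88 in WT control and 20.8, 4.66, 18.2 and 20.9 in KO embryos 2 to 5, with embryo 5, which had Y-linked counts, the highest, and PSMD10 was at 42.5, 19.7 and 22.9 against 23.3, 6.99, 35.7 and 14.5. The part of the sex of the embryo was not tested. The models of UBE2A and NKRF overlap in the annotation. Of the 6 X-linked genes of the pathway list, 4 of them tested, 5 were lowest among GATA3 KO embryos in embryo 6 (26.3% of all tested transcripts were), and for 4 of the 6 the other KO embryos were all above every control (17.4% of all tested transcripts). The E3 ligase HUWE1 was at 67.9, 73.5 and 65.3 in WT control and 107, 106, 102 and 23.8 in GATA3 KO embryos, and at 84.8 to 103 against 170, 121, 113 and 70.3 in the table of CDX2 KO. There 4 of the 6 were lowest among KO embryos in embryo 5 (18.1% of all tested transcripts were), and for 1 of the 6 the other KO embryos were all above every control (5.11%).

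**Figure D5:**
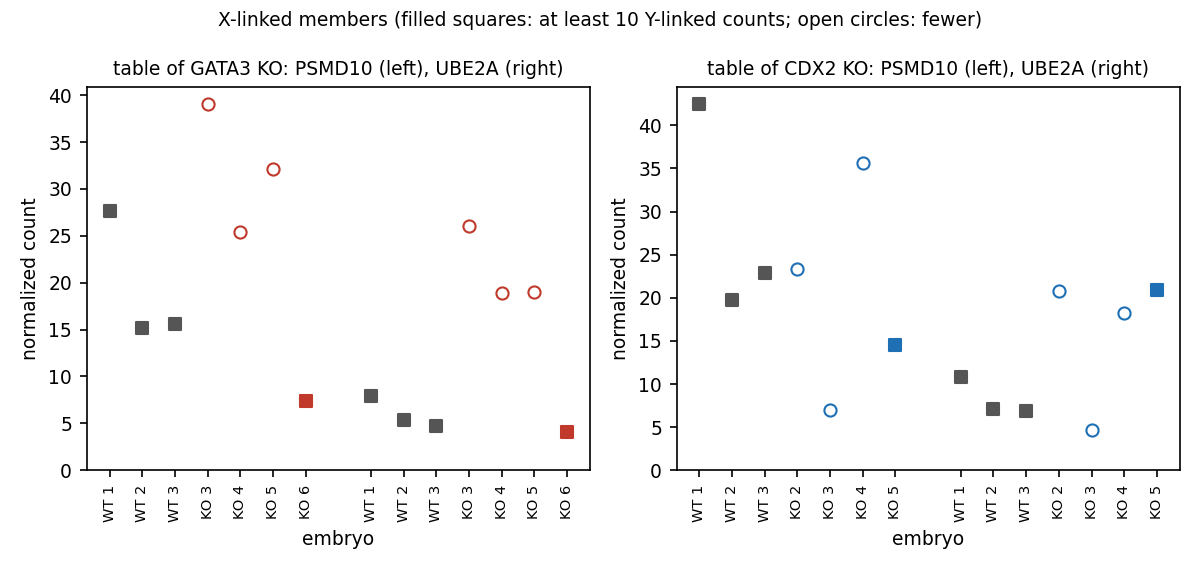
Normalized counts (y axes from 0) of PSMD10 and UBE2A in each embryo of the tables of GATA3 KO and CDX2 KO, with filled squares for embryos with at least 10 Y-linked counts and open circles for the others, and WT control in grey. In the table of GATA3 KO the 3 open circles of UBE2A lie at 18.95 to 26.1 and the filled squares at 4.11 to 7.89, whereas in that of CDX2 KO embryo 5 is a filled square at 20.9.

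The other genes of the pathway ran from E1 enzymes to E3 ligases and deubiquitinases. Of a list of 137, 92 were tested in the table of GATA3 KO, with 57 above 0 and 35 below and a median log2 fold change of 0.19. TXNL1, a thioredoxin that docks on the 19S particle, was the only one that rose and none fell (1.55% of all tested transcripts were called higher). It was at 56.8, 25.9 and 35.7 in WT control and 104, 62.5, 100.1 and 82.1 in GATA3 KO embryos, all above the controls (1.17 ± 0.29, limma adjusted p = 0.047). The call of TXNL1 held in 2 of the 7 fits that left out 1 embryo (0.91 to 1.46) and was lost with edgeR (adjusted p = 0.060) and quantile normalization (limma adjusted p = 0.058). SUMO3, a small modifier, was at 12.4 to 14.2 and 26.2 to 33.3 and narrowly missed the threshold (1.09 ± 0.29, limma adjusted p = 0.052).

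UBB, a ubiquitin gene, did not pass in GATA3 KO embryos, at 420 to 465 in WT control and 472 to 612 in KO embryos (0.25 ± 0.21). The E1 enzyme UBA1 was at 54.4 to 60.5 in WT control and 91.2, 82.7, 98.9 and 32.0 in GATA3 KO embryos, with embryo 6 below and the others above every control. NFE2L2, a transcription factor of the oxidative stress response, was at 37.9, 31.3 and 17.1 in WT control and 57.9, 46.5, 52.4 and 41.9 in GATA3 KO embryos (0.83 ± 0.30, limma adjusted p = 0.12). From the same list, NFE2L1 was at 15.0 to 31.1 in WT control and 17.4 to 28.6 in GATA3 KO embryos (0.04 ± 0.32). AKIRIN2, also of that list, had a log2 fold change of -0.09 ± 0.42. Without overlap between the groups, 13 of the 92 tested genes were above the controls and 5 below, beside 11.9% and 7.05% of all tested transcripts. The 5 were the E3 genes UBR4, SYVN1, WWP2 and STUB1 and the adaptor DDB1, which did not pass with limma, UBR4 being at 105 to 147 and 50.0 to 82.9 (-0.84 ± 0.26, limma adjusted p = 0.074). In CDX2 KO embryos 103 of the list were tested, 73 were below 0 with a median of -0.26, and 0 passed with limma, edgeR or DESeq2, with 1 at an unadjusted p under 0.05. TXNL1 was at 33.2 to 86.3 in WT control and 18.4, 4.66, 63.9 and 97.7 in CDX2 KO embryos 2 to 5, the order of embryos of the summed core.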

How the data were processed

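RNA from single blastocysts was made into Smart-seq2 libraries from polyadenylated RNA (the labels and the study's methods give different numbers of PCR cycles). Per the labels, the authors used Trimmomatic, HISAT2, featureCounts and DESeq2 on ARS-UCD1.2. The deposited signal of an embryo is its count over 1 size factor per table. All values were whole multiples of 1 step per column (100% within 0.01), from which counts were recovered. WT control embryos have about 1.80 to 1.87 times as many counts per transcript in the table of CDX2 KO as in the other, and the counting options are not given in the sources used here. The authors' baseMean, log2 fold changes, Wald score and p-values, also deposited, were not used. Columns of WT control were matched to samples by number, KO columns to their group alone. Embryos are the replicates, and the sources used here do not say how they fall into cultures or days, so p-values measure the spread between these embryos.

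RefSeq genes of ARS-UCD2.0 named 98.6% of accessions in each table and gave the overlaps of gene models (27 of the 78 members) and chromosome X. limma 3.58.1 (R 4.3.3, trended prior) was fitted on log2(normalized count + 1) within 1 table and tested on simulated data. Errors beside log2 fold changes are standard errors. edgeR 4.0.16, DESeq2 1.42.0, other pseudocounts, filters, scalings and thresholds and a covariate for at least 10 Y-linked counts were alternatives. Python 3.11.15, pandas 2.3.3 and matplotlib 3.10.9 made the summaries. Members, roles, the pathway list, the markers and the rule for named genes were chosen with earlier results of these data known. That rule took members past the threshold, the highest and lowest log2 fold change of each prefix per table, genes fixed for their role, the 5 members of highest mean, those without overlap and a log2 fold change of at least 1, and pathway genes past the threshold. PSMD1, PSMB11, UBE2R2, UBE2Z, RAD18 and pathway genes other than TXNL1 were named after their values were seen. The ratio of PSMB3 to the other beta ring subunits was also chosen then. Some genes that the rule takes are not reported here.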

Additional observations from a re-analysis of the deposited data

Results flagged for a closer look

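Single embryos that stand far from the rest of their group were sought in 86 sets of 4 KO values of the named genes (Dixon's 95% value for 4), of which chance alone gives about 4.3. PSMD6 was at 94.07 in GATA3 KO embryo 3 with the other GATA3 KO embryos at 58.3 to 62.9. UBE2A was at 4.66 in CDX2 KO embryo 3 with the other CDX2 KO embryos at 18.24 to 20.94, and 3 counts are worth 6.99 in that embryo.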

How the results depend on the processing

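No paired analysis was possible because the KO columns carry numbers that are not the replicate numbers of the labels. The 4 members called in GATA3 KO embryos became 0 at a mean of at least 100, a filter that left 5 members tested and removed all 4. They became 1 without the trended prior and 0 with the Y-linked covariate, and 0 to 10 when 1 embryo was left out. Over all tested transcripts the 66 called higher and 20 lower became 24 and 13, 10 and 6, and 0 and 1 under the first 3, and 0 and 1 to 259 and 45 with 1 embryo left out. DESeq2 split its 4 calls into 3 higher and 1 lower (PSMB3), against 4 higher by limma. The count of 1 other pathway gene (TXNL1) became 0 with a pseudocount of 0.1, without the trended prior and with the Y-linked covariate, 2 with a pseudocount of 5 and with DESeq2, and 0 to 5 with 1 embryo left out; with edgeR and quantile normalization it stayed 1, but as UBR4, called lower, and at a mean of at least 100 as SKP1. The median of members in GATA3 KO embryos, 0.35, was 0.12 at a mean of at least 100, 0.20 with quantile normalization, 0.49 with the Y-linked covariate, 0.22 with edgeR, 0.24 with DESeq2 and 0.25 to 0.51 with 1 embryo left out. Quantile normalization, edgeR and DESeq2 moved the median of all tested transcripts from 0.11 to between 0.00 and 0.01, and 74.2%, 75.8% and 74.2% of members, against 50.2%, 50.4% and 50.2% of all tested transcripts, were then above 0. In CDX2 KO embryos the median of members, -0.42, turned to 0.28 with the Y-linked covariate, which rests on embryo 5, and to 0.16 without embryos 2 and 3. No member was called there under any alternative. Over all named genes and alternatives, 1240 values kept their call or moved by less than 1 standard error, 79 uncalled ones moved further, 36 lost and 7 gained a call, and no called one turned direction. Depth limits low members most, 3 counts being worth 4.53 to 29.8 CPM.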
